A study of Mus musculus with 2 samples.

Results

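The miR-181 family was examined in small RNA libraries of extracellular vesicles (EVs) from serum, the membrane-bound particles shed by cells into the circulation. Its members were the mature arms of miR-181a, b, c and d in a fixed list of 9 names, and all 9 were found among the 1847 mature miRNAs listed in both deposited tables. Of these, 4 are 5p arms and 5 are 3p arms. One further arm, miR-181b-2-3p, was listed in the tables but was not a member, and it is given only where the arms of miR-181b are described.

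There were 2 libraries, 1 per group, both from 7-week-old male mice injected with tamoxifen at 100 mg/kg on 5 consecutive days and sampled 3 days after the last dose. The iFIRKO genotype is Adipoq-CreERT2; Insr flox/flox, in which the adiponectin promoter drives a tamoxifen-inducible Cre recombinase so that the insulin receptor is deleted in adipocytes. The control genotype is labelled WT, whereas by the methods of the study the control mice were IR flox/flox animals that lack the Cre. Each library was made from pooled serum of several mice, so no spread between animals could be measured, no test between genotypes was possible, and no p-value is given. No miRNA reports the deletion itself. The study followed up miR-451a, miR-144-3p, miR-486a-3p and miR-16-2-3p as miRNAs raised in iFIRKO serum EVs. It also measured this rise by quantitative RT-PCR in individual serum samples. In the deposited tables as labelled, these miRNAs were lower in iFIRKO EVs, with ratios of iFIRKO to control of 0.409, 0.506, 0.549 and 0.557. The study also reported that most serum EV miRNAs were decreased in iFIRKO mice. As deposited and labelled, 66.3% of all 1847 miRNAs were over 1.5-fold higher in iFIRKO EVs and 3.03% over 1.5-fold lower. The tables and labels thus run against that report and against the direction under which the followed-up miRNAs were chosen. Whether the labels of the 2 tables were exchanged could not be settled from the files. Control EVs and iFIRKO EVs below mean the library labelled control and the library labelled iFIRKO, and every direction is conditional on these labels.

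The total count (depth) was 3817902 in control EVs and 2233498 in iFIRKO EVs, a 1.71-fold difference. Levels are given as counts and as counts per 1000000 of the depth (CPM), and a ratio is the CPM of iFIRKO EVs divided by that of control EVs. The 95% confidence intervals (CI) cover counting error only, Clopper-Pearson for ratios and Wilson for shares. The lowest value of each table stands for fewer than 10 counts, since no count between 1 and 10 occurred, and all 9 members were above it in both libraries.

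A miRNA hairpin is cut into a 5p and a 3p arm. The arm that is kept guides the silencing complex to messages, mainly through its seed, bases 2 to 8. The miR-181 family is known from lymphocytes, where miR-181a tunes the sensitivity of the T cell receptor, and from brain. In vascular endothelium miR-181b restrains inflammatory signalling, and in white adipocytes the family has been linked to tissue inflammation and insulin sensitivity.

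The mature sequences are shown first, because the 4 5p arms share 1 seed while the 3p arms tell the hairpins apart. They are from RefSeq (GRCm38.p6), all 9 members were matched by name, and capitals mark the seed.
mmu-miR-181a-5p: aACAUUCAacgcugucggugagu
mmu-miR-181b-5p: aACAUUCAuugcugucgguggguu
mmu-miR-181c-5p: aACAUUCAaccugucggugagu
mmu-miR-181d-5p: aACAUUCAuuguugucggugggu
mmu-miR-181a-1-3p: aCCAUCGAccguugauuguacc
mmu-miR-181a-2-3p: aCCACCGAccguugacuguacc
mmu-miR-181b-1-3p: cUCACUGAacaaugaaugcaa
mmu-miR-181c-3p: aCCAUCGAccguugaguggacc
mmu-miR-181d-3p: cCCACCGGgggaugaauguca

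The 4 5p arms were identical over their first 8 bases, and none of the other mature mouse miRNAs in the RefSeq table carried their seed. Substitutions are counted from 1 at the 5′ end, with the base of the first-named arm first. miR-181a-5p and miR-181c-5p were 1 edit apart, a single missing base in miR-181c-5p. miR-181b-5p and miR-181d-5p were 2 edits apart, the substitution C12U and 1 base of length. How the authors assigned reads between such close sequences is not given in the sources used here, so the split within each of these pairs is uncertain. Among the 3p arms, miR-181a-1-3p and miR-181a-2-3p differed by U5C and U16C, and the first of these lies in the seed. miR-181a-1-3p and miR-181c-3p kept the same seed and differed by U16G and U19G.

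The 6 hairpins lie in 3 pairs (GRCm38). Mir181a-1 (chr1:137966455-137966541) and Mir181b-1 (chr1:137966639-137966718) are 97 bases apart on the plus strand. Both overlap an exon of the lincRNA A430106G13Rik on the same strand, the former only at its end. Mir181a-2 (chr2:38852735-38852810) and Mir181b-2 (chr2:38853830-38853918) are 1019 bases apart on the plus strand, in an intron of Nr6a1, which is transcribed from the opposite strand. Mir181d (chr8:84178716-84178787) and Mir181c (chr8:84178873-84178961) are 85 bases apart on the minus strand, in an intron of Nanos3, which has the same strand. The mature miR-181a-5p and miR-181b-5p arise from hairpins on chromosomes 1 and 2 alike, so that their counts cannot be divided between these pairs.

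The 5p arms differed between the libraries by no more than counting error on the deposited scale. Summed over the 4 arms, the common seed had 3505 counts in control EVs (918 CPM) and 2137 in iFIRKO EVs (957 CPM), giving a ratio of 1.04 (95% CI, 0.987 to 1.10). These sums were 0.0918% and 0.0957% of the depth. In such bulk libraries, fewer vesicles from a source and less of a miRNA per vesicle cannot be told apart.

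miR-181a-5p, the T cell miRNA of the family, was the most abundant member, with 2143 counts in control EVs (561 CPM) and 1283 in iFIRKO EVs (574 CPM). Its ratio was 1.02 (95% CI, 0.954 to 1.10), and it ranked 99th and 95th of the 1847 miRNAs. miR-181b-5p, the member known from endothelium, had 921 and 596 counts (241 and 267 CPM), giving a ratio of 1.11 (95% CI, 0.996 to 1.23). For both arms the counting intervals of the levels overlapped between the libraries.

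miR-181c-5p had 210 counts in control EVs (55.0 CPM) and 136 in iFIRKO EVs (60.9 CPM), giving a ratio of 1.11 (95% CI, 0.886 to 1.38). miR-181d-5p had 231 and 122 counts (60.5 and 54.6 CPM), giving a ratio of 0.903 (95% CI, 0.719 to 1.13). It was the only member with a ratio below 1 on the deposited scale. The order of the levels was thus miR-181a-5p, then miR-181b-5p, in both libraries, while miR-181c-5p and miR-181d-5p changed places within overlapping intervals. How efficiently each sequence entered the libraries was not measured, so the order is one of counts.

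The 3p arms were less abundant and their ratios lay higher. Together they had 479 counts in control EVs (125 CPM) and 346 in iFIRKO EVs (155 CPM), giving a ratio of 1.23 (95% CI, 1.07 to 1.42). miR-181a-1-3p had 283 and 197 counts (74.1 and 88.2 CPM), giving a ratio of 1.19 (95% CI, 0.987 to 1.43). It was the third most abundant member in both libraries, above miR-181c-5p and miR-181d-5p, although it is the arm opposite miR-181a-5p.

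miR-181c-3p had 119 counts in control EVs (31.2 CPM) and 81 in iFIRKO EVs (36.3 CPM), giving a ratio of 1.16 (95% CI, 0.866 to 1.56). The other 3 arms had 30 or fewer counts in either library. miR-181b-1-3p had 30 and 29 counts (7.86 and 13.0 CPM), giving a ratio of 1.65 (95% CI, 0.957 to 2.85). This was the largest ratio of the 9 members and its interval still included 1. The ratios of miR-181d-3p (29 and 25 counts) and miR-181a-2-3p (18 and 14 counts) were 1.47 (95% CI, 0.828 to 2.61) and 1.33 (95% CI, 0.612 to 2.83). Each of the 5 ratios of 3p arms exceeded each of the 4 ratios of 5p arms, an order that no scaling of the libraries can change, but the intervals of single arms overlapped.

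**Figure D1:**
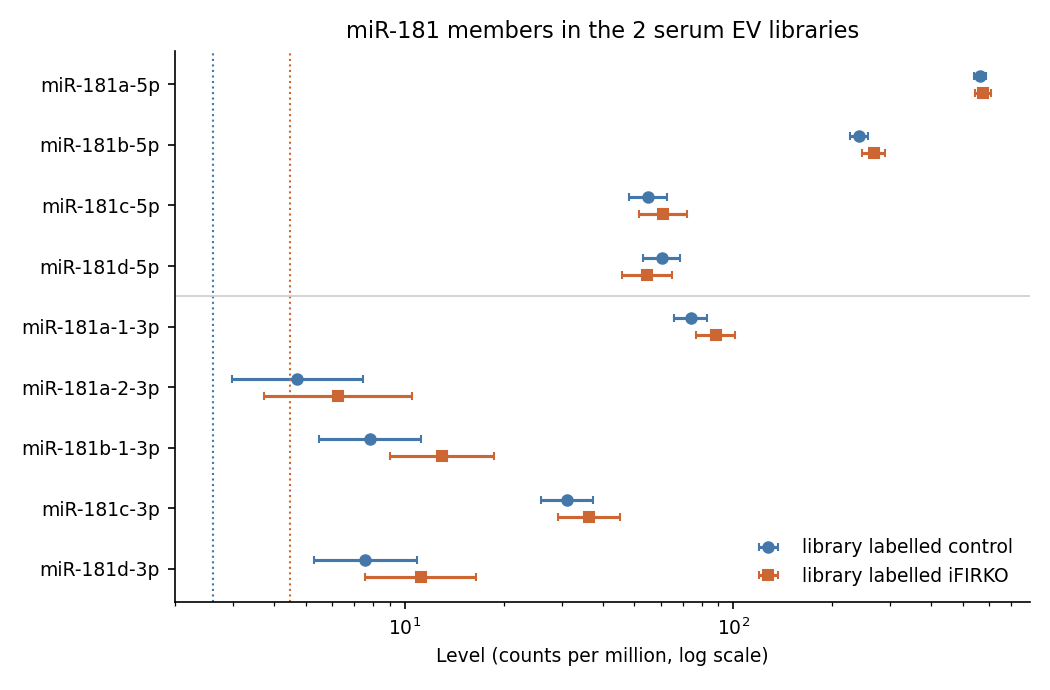
Level of each miR-181 member in CPM (log axis) in control EVs (circles) and iFIRKO EVs (squares). Bars are 95% Wilson intervals for counting error, and the dotted lines mark 10 counts in each library (2.62 and 4.48 CPM). The intervals of both libraries overlap for every member.

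At the 1.5-fold threshold of the study, 1 of the 9 members (miR-181b-1-3p) was higher in iFIRKO EVs, whereas 66.3% of all 1847 miRNAs were. The study reported the reverse for serum EV miRNAs, most of which were decreased in iFIRKO mice. None of the members was over 1.5-fold lower, against 3.03% of all miRNAs. The 95% counting interval of the ratio included 1 for all 9 members. Their median log2 ratio was 0.22, that of the 5p arms alone 0.09 and that of the 3p arms alone 0.41, and the median of all miRNAs was 0.88. All 9 ratios lay below the median ratio of all miRNAs, 1.84. With the labels exchanged each ratio would be inverted: the summed 5p arms would have a ratio of 0.959 (95% CI, 0.909 to 1.01) and the summed 3p arms 0.810 (0.704 to 0.933), 1 of the 9 members and 66.3% of all miRNAs would be over 1.5-fold lower, and no member and 3.03% of all miRNAs over 1.5-fold higher.

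Because ratios in these tables fell with abundance, the members were also set beside miRNAs of their own abundance class. miR-181a-5p, with a mean count over 1000, had a log2 ratio of 0.03, against a median of -0.07 for the 118 miRNAs of that class. The 5 members with a mean count from 100 to 1000 had log2 ratios from -0.15 to 0.25, all below the median of 0.53 of that class, in which 47.0% of 302 miRNAs were over 1.5-fold higher. The 3 members with a mean count from 10 to 100, all 3p arms, had log2 ratios from 0.41 to 0.72, below the class median of 1.01. In all, 8 of the 9 members were below the median of their class, and the exception was miR-181a-5p. The 3p arms that had the highest ratios were thus also the members with the fewest counts, and abundance and arm cannot be told apart here.

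**Figure D2:**
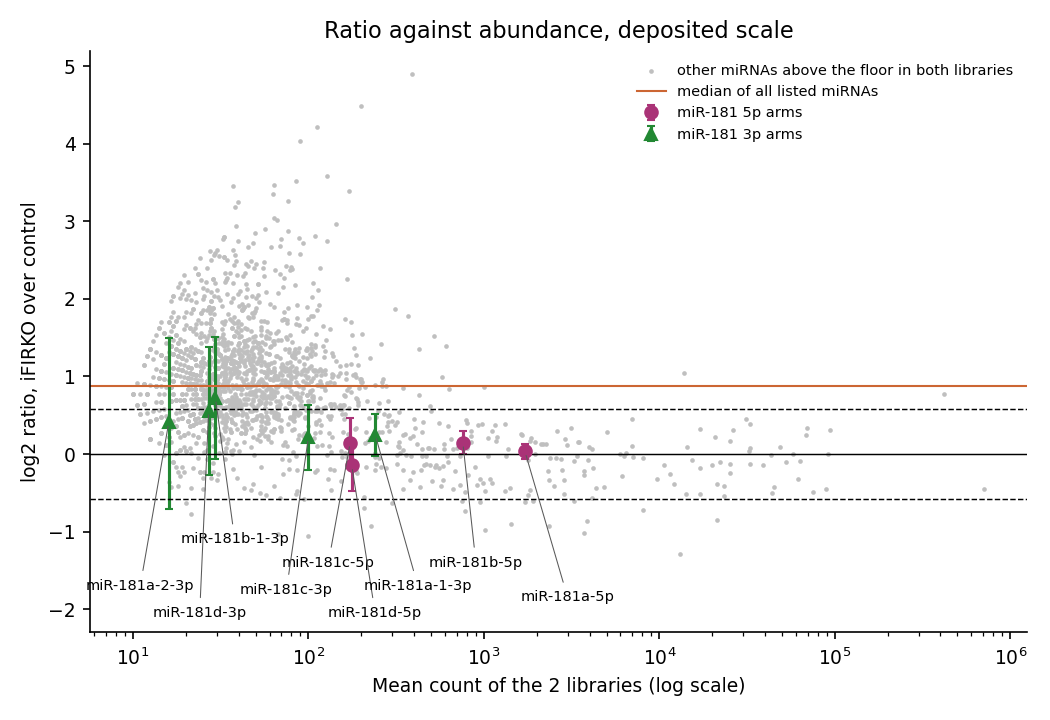
The log2 ratio of iFIRKO EVs over control EVs on the deposited scale, against the mean count of both libraries (log axis), for the miR-181 5p arms (circles), the 3p arms (triangles) and the other miRNAs above the floor in both libraries (grey points). Bars are 95% counting intervals, dashed lines mark 1.5-fold, and the coloured line is the median of all 1847 miRNAs (0.88). All members lie below that line.

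The directions of single members depended on the scaling. With 8 of 9 ratios above 1 as deposited, 3 were above 1 after scaling to the median of ratios, 4 after scaling to miR-148a-3p (the reference miRNA of the study) and none after scaling to TMM factors. TMM scaling lowered all log2 ratios by 0.85, and the ratios of members then ranged from 0.499 for miR-181d-5p to 0.914 for miR-181b-1-3p. On that scale 6 of the 9 members were over 1.5-fold lower, against 19.5% of all miRNAs, and none was over 1.5-fold higher, against 21.0%. The 6 were the 4 5p arms, miR-181a-1-3p and miR-181c-3p, the members with an average of 100 counts or more.

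**Figure D3:**
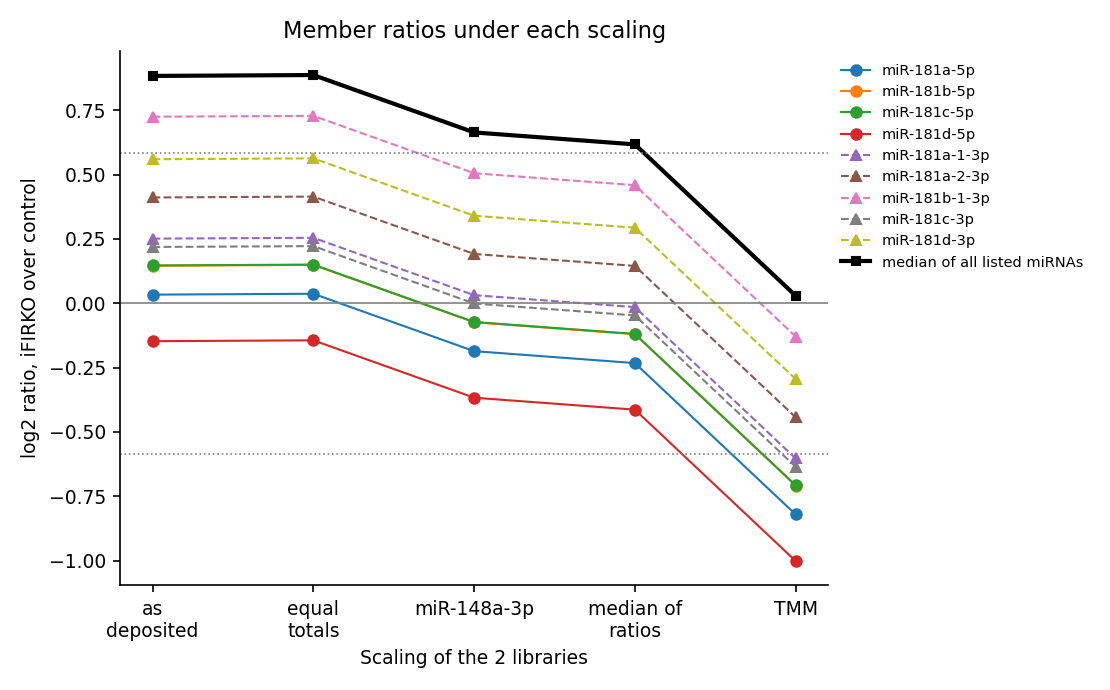
The log2 ratio of each member (5p arms as circles with solid lines, 3p arms as triangles with dashed lines) and the median of all 1847 miRNAs (squares) under 5 scalings of the libraries. Dotted lines mark 1.5-fold. The points of miR-181b-5p and miR-181c-5p coincide, and every member lies below the median of all miRNAs under each scaling, because a scaling shifts all values alike.

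Shares within the family do not depend on the scaling and were examined next. miR-181a-5p made up 61.1% (95% CI, 59.5 to 62.7) of the 5p counts in control EVs and 60.0% (57.9 to 62.1) in iFIRKO EVs. miR-181b-5p made up 26.3% (24.8 to 27.8) and 27.9% (26.0 to 29.8). miR-181c-5p and miR-181d-5p each held between 5.7% and 6.6% of the 5p counts in either library. The largest shift of any of the 4 shares was 1.61 percentage points, for miR-181b-5p, and the intervals of both libraries overlapped for each arm.

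The same shares were computed for other families in which several paralogs share a seed. The largest shift was 4.21 percentage points among the 5 5p arms of the miR-30 family (miR-30d-5p), 2.88 among the 3 3p arms of the miR-29 family (miR-29a-3p) and 5.21 between the 5p arms of miR-26a and miR-26b. These families were far deeper, since miR-26, the least abundant of them, had 36345 and 18336 counts, and for the 3 arms named the intervals of both libraries did not overlap. Over the counts of each family, the summed ratio was 0.898 for miR-30 (95% CI, 0.890 to 0.906), 1.22 for miR-29 (1.21 to 1.24) and 0.862 for miR-26 (0.847 to 0.878) on the deposited scale. The interval of the miR-181 5p sum, 0.987 to 1.10, overlapped none of these. The other families had far more counts and ratios fell with abundance, so abundance and family cannot be told apart in this comparison. Whether the shifts in shares differ between families was not tested, and the miR-181 shares carry wider counting intervals.

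Within the pairs of neighbouring hairpins, the balance of paralogs also differed by no more than counting error. There were 2.33 counts of miR-181a-5p per count of miR-181b-5p in control EVs (95% CI, 2.15 to 2.52) and 2.15 in iFIRKO EVs (1.95 to 2.38). For miR-181c-5p per miR-181d-5p, which share the locus on chromosome 8, the values were 0.909 (0.751 to 1.10) and 1.11 (0.867 to 1.44). The odds ratio between the libraries was 0.925 (95% CI, 0.816 to 1.05) for the former pair and 1.23 (0.891 to 1.69) for the latter, so that this depth leaves room for a change of up to 1.69-fold in the balance of miR-181c-5p and miR-181d-5p.

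Because the 3p arms differ between hairpins, their counts were compared within miR-181a and within miR-181b. Of the counts of both miR-181a 3p arms, miR-181a-1-3p, from chromosome 1, held 94.0% (95% CI, 90.7 to 96.2) in control EVs and 93.4% (89.2 to 96.0) in iFIRKO EVs. The 3p arms of miR-181a are 2 edits apart, as are those of miR-181b. How reads were assigned between them is not given, so these splits are uncertain to that extent. For miR-181b the balance was the other way: miR-181b-1-3p, from the same locus on chromosome 1, held 37.5% (27.7 to 48.5) and 38.2% (28.1 to 49.4) of the counts of both miR-181b 3p arms. The remainder was miR-181b-2-3p, from chromosome 2, with 50 counts in control EVs (13.1 CPM) and 47 in iFIRKO EVs (21.0 CPM), giving a ratio of 1.61 (95% CI, 1.06 to 2.44). Of all miRNAs, 61.2% had a higher ratio than this arm. Its log2 ratio of 0.68 was below 1.01, the median of the class with mean counts from 10 to 100. The more abundant 3p arm was thus from chromosome 1 for miR-181a and from chromosome 2 for miR-181b in both libraries. For miR-181b this rests on few counts. In iFIRKO EVs, the 95% CI of miR-181b-1-3p counts per count of miR-181b-2-3p was 0.375 to 1.001, which included 1. How well each 3p arm is kept and captured was not measured, so these counts do not give the output of each locus. The share of 5p arms from each locus was not measured.

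The balance of arms differed between paralogs. The 5p arm held 87.7% of the miR-181a counts in control EVs (95% CI, 86.3 to 88.9) and 85.9% (84.0 to 87.6) in iFIRKO EVs. For miR-181b with its member arm miR-181b-1-3p the values were 96.8% (95.5 to 97.8) and 95.4% (93.4 to 96.8), and with miR-181b-2-3p included they were 92.0% (90.2 to 93.5) and 88.7% (86.1 to 90.9). miR-181c stood apart, with a 5p share of 63.8% (58.5 to 68.8) and 62.7% (56.1 to 68.8), below the intervals of each of the other paralogs in both libraries. miR-181d, from the same locus, had 88.8% (84.4 to 92.1) and 83.0% (76.1 to 88.2). The intervals do not cover how reads were assigned. miR-181c-5p is 1 edit from the more abundant miR-181a-5p, and miR-181c-3p is 2 edits from the more abundant miR-181a-1-3p. The 5p share of miR-181c is uncertain to that extent.

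Between the libraries, the 5p share was lower in iFIRKO EVs for each of the 4 paralogs, by 1.16 to 5.85 percentage points in size, and the intervals overlapped for each. With miR-181b-2-3p included, the odds ratio of the 5p arm of miR-181b was 0.681 (95% CI, 0.483 to 0.962). Over all 9 members the 5p share was 88.0% (86.9 to 89.0) and 86.1% (84.6 to 87.4), an odds ratio of 0.844 (95% CI, 0.726 to 0.982). These intervals hold counting error alone, and with 1 library per group the spread of an arm share between pools of mice is unknown. The 3p arms were the rarer arms of each paralog and ratios fell with abundance, so abundance and arm cannot be told apart in these shares either.

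**Figure D4:**
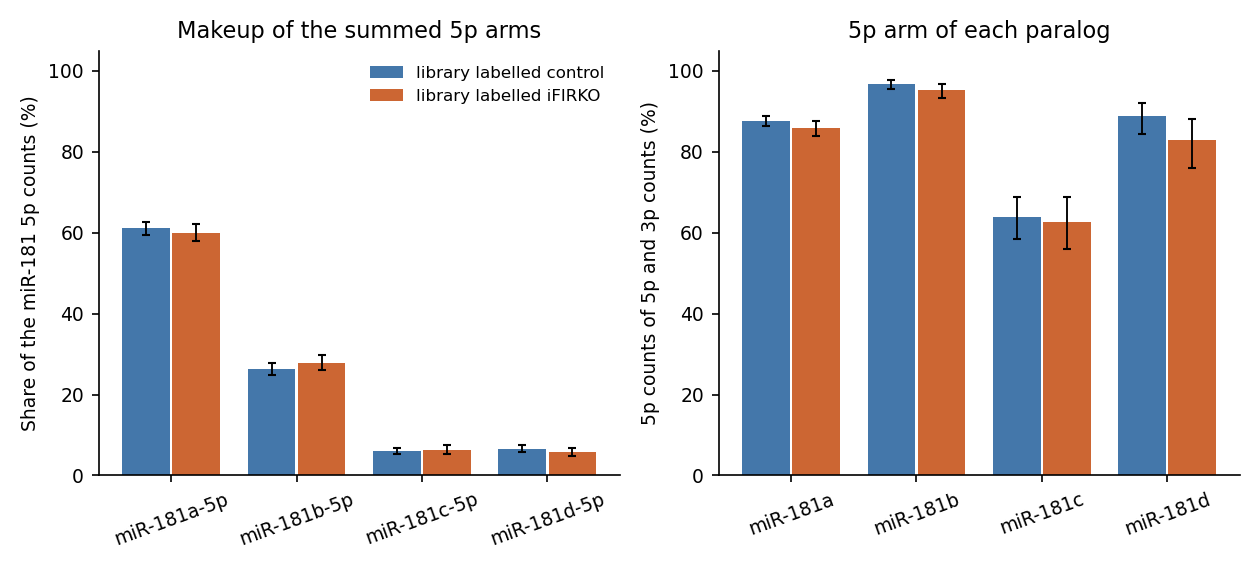
Left, the share (%) of each 5p arm in the summed 5p counts of the miR-181 family. Right, the 5p counts as a share (%) of the 5p and 3p member counts of each paralog, for control EVs and iFIRKO EVs, with 95% Wilson intervals as bars. The intervals of both libraries overlap in each pair of bars, and miR-181c has the lowest 5p share.

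miRNAs of cells in which miR-181 is known were set beside the family. Of 7 leukocyte miRNAs, none was past 1.5-fold in either direction, against 66.3% of all miRNAs higher and 3.03% lower. Their median log2 ratio was -0.11 on the deposited scale, with a range from -0.32 (miR-223-3p, a myeloid miRNA) to 0.32 (miR-342-3p). All but miR-155-5p had a mean count over 1000. That class had a median of -0.07, and 2.54% of it was over 1.5-fold higher, so these values are near those of the class. miR-150-5p, a miRNA of mature lymphocytes, had 15397 and 7508 counts, giving a ratio of 0.834 (95% CI, 0.811 to 0.857), below the interval of miR-181a-5p. The endothelial miR-126a-3p and miR-126a-5p had ratios of 0.710 (0.702 to 0.718) and 0.684 (0.671 to 0.698), below the interval of miR-181b-5p. Each of these 3 miRNAs was thus lower relative to the miR-181 arm than in control EVs, and this order does not depend on the scaling. All had more counts than that arm, and ratios fell with abundance, so abundance and cell type cannot be told apart here. The leukocyte list was not uniform beside miR-181a-5p. miR-342-3p, with a ratio of 1.25 (1.22 to 1.28), lay above its interval. Those of miR-142a-5p (0.910 to 1.02) and miR-155-5p (0.781 to 1.01) overlapped it. Those of miR-142a-3p, miR-146a-5p and miR-223-3p lay below it. The cells from which the miR-181 arms came were not measured.

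Among all other miRNAs, the closest to miR-181a-5p in level over both libraries were miR-215-5p, miR-205-5p and let-7d-3p, at distances of 0.036, 0.10 and 0.16 on the log2 scale. The closest to miR-181b-5p were miR-674-5p, miR-200a-3p and miR-210-3p, at distances of 0.10, 0.17 and 0.17. Closeness over 2 libraries describes a similar level and nothing more.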

How the data were processed

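Total RNA of serum EVs was isolated and made into QIAseq miRNA libraries, which were sequenced on a NextSeq500 and analysed by the authors on the GeneGlobe Data Analysis Center. The processing notes name the build mm10, and the aligner, miRNA release and use of molecular identifiers are not given in the sources used here. The deposited tables hold 1 normalized signal per miRNA, and 100.0% of the values in either library were whole counts (within 0.01 of a count and the rounding of the 6 printed digits) divided by 1 constant, taken as the depth. The recovered counts were analysed with Python 3.11.15, scipy 1.17.1 and, for TMM factors, edgeR 4.0.16. No count test was run, since 1 library per group leaves no residual degrees of freedom.

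Ratios carry Clopper-Pearson intervals and shares Wilson intervals (95%), and odds ratios carry exact conditional intervals. The interval script was tested on simulated data. Alternatives were the scaling (equal totals, the median ratio among miRNAs averaging 100 counts or more, TMM, miR-148a-3p), 1 CPM added, filters at an average of 10 and of 100 counts, a 2-fold threshold, the lowest value set to 10 counts and leaving out miR-181a-5p. All 9 members, the listed leukocyte, endothelial, erythroid, liver, muscle and neural miRNAs and the families miR-30, miR-29 and miR-26 could be named, with the 3 miRNAs nearest to each of the 2 most abundant members. The members and lists were chosen with earlier results of these data known. Sequences are from RefSeq and loci from GENCODE M21.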

Additional observations from a re-analysis of the deposited data

How the results depend on the processing

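No paired analysis was possible because either group was represented by 1 library only, and for the same reason no replicate could be left out. The ratio of the summed 5p arms, 1.04 as deposited, became 0.867 when scaled to the median of ratios, 0.895 when scaled to miR-148a-3p and 0.577 when scaled to TMM factors, and that of the summed 3p arms, 1.23, was 1.03, 1.06 and 0.683 in the same order. These shifts follow from 1 factor applied to every miRNA (log2 shifts of 0.27, 0.22 and 0.85 downwards). The count of members over 1.5-fold higher fell from 1 to 0 under these 3 scalings, where 51.8%, 54.2% and 21.0% of all miRNAs were higher. It was also 0 at an average of 100 counts or more (34.5% of all miRNAs that pass) and at a 2-fold threshold (43.0% of all miRNAs). With TMM, 6 members were over 1.5-fold lower, against 19.5% of all miRNAs. All 6 averaged 100 counts or more, and ratios fell with abundance, so the share among comparably abundant miRNAs was larger than 19.5%. The ratio of miR-181b-1-3p, 1.65, turned to 0.914 with TMM. Without miR-181a-5p, the share of miR-181d-5p among the other 5p arms fell by 2.67 percentage points instead of 0.882, a smaller denominator by construction. Requiring counts above the floor in both libraries, an alternative chosen after seeing the data, left the count of higher members at 1. Depth limits the 3p arms most, since 3 of the 5 rest on 30 or fewer counts.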

Other observations

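The other cell and tissue lists differed in direction beside the miR-181 family, on the deposited scale and with the labels as given, which the miRNAs followed up by the study run against. All 5 erythroid miRNAs had ratios below 1, with a median log2 ratio of -0.86, whereas 11.9% of all miRNAs had ratios below 1. Over 1.5-fold lower were 3 of them, all among the miRNAs that the study picked from these libraries, against 3.03% of all miRNAs. Ratios fell with abundance, and among the 118 miRNAs with a mean count over 1000 only 48 had ratios above 1. That class held miR-451a, miR-144-3p, miR-486a-5p and miR-486a-3p, and its median log2 ratio was -0.07, with a lower quartile of -0.40. miR-144-5p averaged 916.5 counts, in a class with a median of 0.53. All 4 liver miRNAs had ratios above 1 and 1 of them, miR-122-5p, was over 1.5-fold higher, with a median log2 ratio of 0.45 that was -0.40 with TMM scaling. Of all miRNAs, whatever their abundance, 88.1% had ratios above 1 and 66.3% were over 1.5-fold higher. Beside their own abundance class most of the liver list lay high. miR-122-5p, miR-192-5p and miR-194-5p averaged 417513.5, 31082.5 and 6967 counts, with log2 ratios of 0.77, 0.45 and 0.46. Each exceeded 0.15, the upper quartile of the most abundant class, in which 2.54% were over 1.5-fold higher. miR-122-3p averaged 115.5 counts, and its log2 ratio of 0.43 was below its class median of 0.53. The cause was not tested. The muscle miRNAs miR-1a-3p and miR-133a-3p had ratios of 0.907 (95% CI, 0.888 to 0.926) and 0.908 (0.882 to 0.934). miR-206-3p, which is restricted to skeletal muscle, had a ratio of 1.30 (1.19 to 1.43), above both intervals under any scaling. Its mean count was lower (923), and its log2 ratio of 0.38 was below the median of 0.53 of its abundance class. The log2 ratios of miR-1a-3p and miR-133a-3p were -0.14, against a class median of -0.07. Abundance and tissue cannot be told apart here.

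Among 3 neural miRNAs, miR-128-3p had 30444 and 21986 counts, giving a ratio of 1.23 (95% CI, 1.21 to 1.26). miR-9-5p (62 and 43 counts) had a ratio of 1.19 (0.784 to 1.78). miR-124-3p had 16 counts in control EVs and 33 in iFIRKO EVs, giving a ratio of 3.53 (1.89 to 6.86) that rests on few counts. Beside their abundance classes the 3 differed. The log2 ratio of miR-128-3p, 0.30, was above the upper quartile of its class, 0.15. That of miR-9-5p, 0.25, was below the lower quartile of its class, 0.62. That of miR-124-3p, 1.82, was above the upper quartile of the same class, 1.39, in which 76.7% were over 1.5-fold higher. The part of these cell types in the miR-181 values was not tested.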
